A study of Schmidtea mediterranea with 24 samples.

Results

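A set of 55 transcripts was higher after hox3a RNAi and lower after lox5b RNAi than in control planarians, out of 14306 with a mean of at least 1 TPM over the 24 libraries and 22197 in the whole table. TPM is the level of a transcript scaled for its length, and the values sum to 1000000 in each library. For each gene, the mean of log2(TPM + 0.5) over the 4 control libraries was subtracted from the mean over the 4 libraries of an RNAi group. The members were chosen by these values, at or above 0.5 for hox3a and at or below -0.5 for lox5b. The values of hox3a, lox5b and the control, and any count of calls between them, are given below as a description only, and nothing is read from those calls.

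The animals were asexual adults of the clonal CIW4 strain of Schmidtea mediterranea, a freshwater flatworm. All animals ate double-stranded RNA 7 times and were starved for 5 days before freezing. Each library came from a pool of 3 whole animals, with 4 libraries for each of 6 groups. The groups were fed double-stranded RNA against hox1, hox3a, hox3b, lox5b or post2b, and the control against unc-22, a gene of another animal, labelled unc. As each library is a pool from 1 clonal strain, p-values below measure the spread between pools, and whole-animal RNA cannot tell fewer cells of a type from less RNA per cell. The silenced Hox transcripts themselves were not analysed here, so the depth of each knockdown is not given.

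Hox genes encode homeodomain transcription factors, which bind DNA and set the identity of regions along the body axis in many animals. RNAi lowers a target by feeding double-stranded RNA whose fragments guide cleavage of the matching mRNA. An asexual planarian reproduces by fission, in which the tail end anchors and the body tears in front of it, and the study asked which genes respond when the Hox genes needed for fission are silenced. hox3a and hox3b are a pair of Hox3-class genes, hox1 belongs to the anterior class, lox5b to a central class of the flatworms and their relatives, and post2b to the posterior class.

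The gene-specific ends of the primers used to clone hox3a and lox5b, the genes whose silencing defines the set, are shown because they fix which transcripts were targeted. They are written 5′ to 3′, without the stretch shared by all 36 primer pairs of the study, and each is 23 bases long.
hox3a forward: ttacaggtggatgatagacacaa
hox3a reverse: tgacaccagaaaattgatagcag
lox5b forward: actcaaaatctgaatttgccgta
lox5b reverse: tgatttgcctttccgttaaagat

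Among the 55 transcripts, the difference of hox3a from unc ranged from 0.50 to 3.85 on the log2 scale with a median of 1.04, and that of lox5b from -4.71 to -0.51 with a median of -1.28. Over the 15829 genes tested, the medians were -0.14 and -0.15, a small shared shift from which the members lay away, as the rule required. The values here keep that shift. Rescaling the libraries, tried only as an alternative, brought these medians to 0.00 and -0.01. hox3a was the group with the highest mean in 52 of the 55, and lox5b the group with the lowest in 47. The levels spanned a wide range: mean TPM over the 24 libraries was at least 10 in 41 members, at least 100 in 23 and at least 1000 in 5. SMESG000074187.1 was the most abundant, at 3313 TPM. All 55 passed the filter on low values used for the tests, and 3 had a TPM of 0 in at least 1 library.

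Summed over the members, TPM was 13767 to 16704 in the 4 unc libraries, 22846 to 35733 in hox3a and 3343 to 7004 in lox5b. The members thus made up 1.38 to 1.67% of all TPM in unc, 2.28 to 3.57% in hox3a and 0.334 to 0.7% in lox5b, and these ranges did not overlap. The summed TPM was 14945 to 21192 in hox1, 11721 to 15894 in hox3b and 15338 to 21070 in post2b, ranges that overlapped that of unc.

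**Figure D1:**
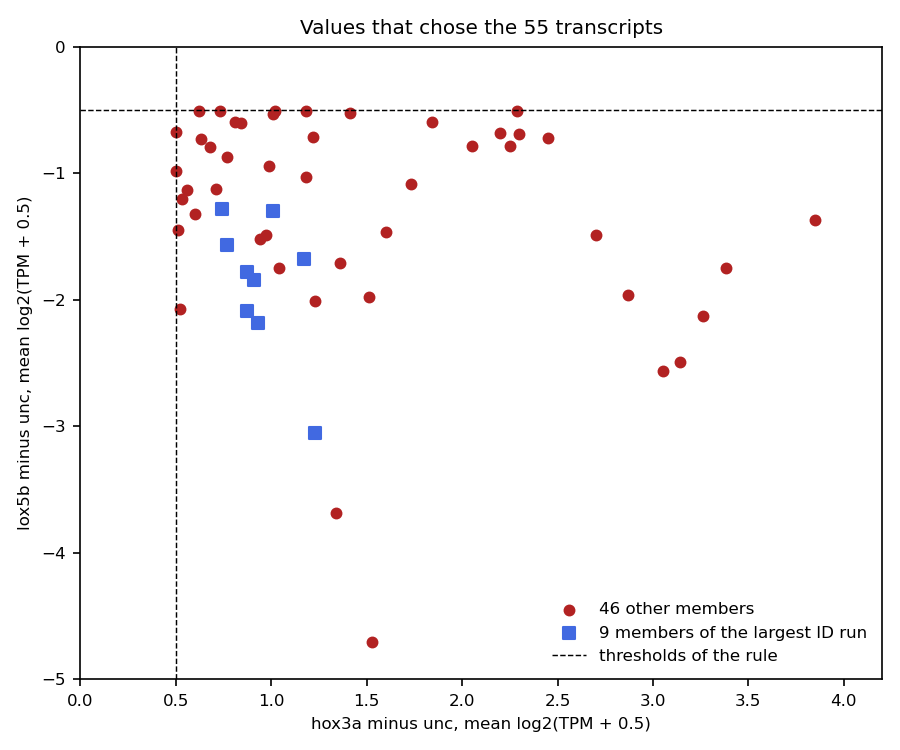
Difference of hox3a from unc (x axis) and of lox5b from unc (y axis) in mean log2(TPM + 0.5) for each of the 55 transcripts, with dashed lines at the thresholds of 0.5 and -0.5. The 9 members of the largest run of ID numbers (squares) lay between 0.74 and 1.23 on the x axis, while other members reached 3.85.

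All 4 hox3a libraries exceeded all 4 unc libraries in 49 of the 55, against 2.48% of all genes tested, and all 4 lox5b libraries lay below all 4 unc libraries in 32, against 32.6% of all genes. At 1.5-fold with an adjusted p under 0.05 in limma, 46 members were higher in hox3a (0.847% of all genes) and 44 lower in lox5b (14.1% of all genes). All 55 were higher in hox3a than in lox5b at that cutoff (3.91% of all genes), with no overlap between the libraries of the 2 groups (9.33% of all genes). At 2-fold with an adjusted p under 0.01, 32 were lower in lox5b (3.92% of all genes). These counts rest on the values that chose the members, so their excess over all genes was fixed by the choice and is no test.

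The largest separation of hox3a from lox5b, 6.23 on the log2 scale, was in SMESG000043423.1. It was listed at 204, 429, 608 and 104 TPM in unc replicates 1 to 4, at 693, 636, 623 and 1405 TPM in hox3a, and at 23.6, 9.65, 4.99 and 8.47 TPM in lox5b. The 3 groups did not overlap, although the lowest hox3a value was close to the highest unc value. Its neighbour by ID number, SMESG000043422.1, had nearly the same profile, with 215, 402, 627 and 112 TPM in unc, 574 to 1219 TPM in hox3a and 11 to 53.9 TPM in lox5b. Here 3 of the 4 hox3a libraries were below unc replicate 3. The ratio of SMESG000043423.1 to SMESG000043422.1 was 0.439 to 1.21 over the 24 libraries, with a median of 0.91. The authors' alignment allowed reads that match a pair of places, but whether such reads entered the TPM is not given in the sources used here. Whether such neighbours are copies that share reads was not tested.

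SMESG000043411.1 had the next widest separation, 5.62. It measured 99.5, 208, 213 and 94.6 TPM in unc, 866, 1040, 1339 and 2101 TPM in hox3a, and 55.4, 17.6, 15.4 and 26.2 TPM in lox5b. Every hox3a library was above every unc library and every lox5b library was below. The transcript with the highest difference of hox3a from unc, SMESG000055624.1 at 3.85, was scarcer: 6.17, 4.73, 6.13 and 4.00 TPM in unc, 50.8, 63.2, 73.5 and 188 TPM in hox3a, and 3.16, 1.32, 1.74 and 1.07 TPM in lox5b. The 3 groups again did not overlap. SMESG000050244.1, with a separation of 5.39, was at 9.59, 38.0, 31.0 and 12 TPM in unc, 144 to 298 TPM in hox3a and 3.53 to 4.92 TPM in lox5b. SMESG000040596.1, with a separation of 4.19, was at 264, 268, 307 and 85.1 TPM in unc, 1077 to 1996 TPM in hox3a and 48.2 to 124 TPM in lox5b. In SMESG000040596.1, lox5b replicate 1 lay above unc replicate 4, so unc and lox5b overlapped.

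In many of these transcripts unc replicate 4 was the lowest control library and hox3a replicate 4 the highest hox3a library. Over the 55 members, unc replicate 4 was the lowest of its group in 39 (70.9%, against 27.6% of the 14306 genes) and hox3a replicate 4 the highest in 42 (76.4%, against 20.7%). lox5b replicate 2 was the lowest of its group in 31 (56.4%, against 23.3%). Among the 46 members outside the largest run of ID numbers, unc replicate 4 was the lowest in 38 and hox3a replicate 4 the highest in 39. Among the 9 members of that run, these counts were 1 and 3, and unc replicate 2 was the lowest in 8. Without unc replicate 4 the rule took 58 transcripts, 50 of them among the 55, and without hox3a replicate 4 it took 50, of which 49 were among the 55. Leaving out each of the 12 libraries of hox3a, lox5b and unc in turn gave sets of 45 to 62 transcripts, and 37 members were in all 12 sets. The replicate numbers of different groups mark no shared animal.

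**Figure D2:**
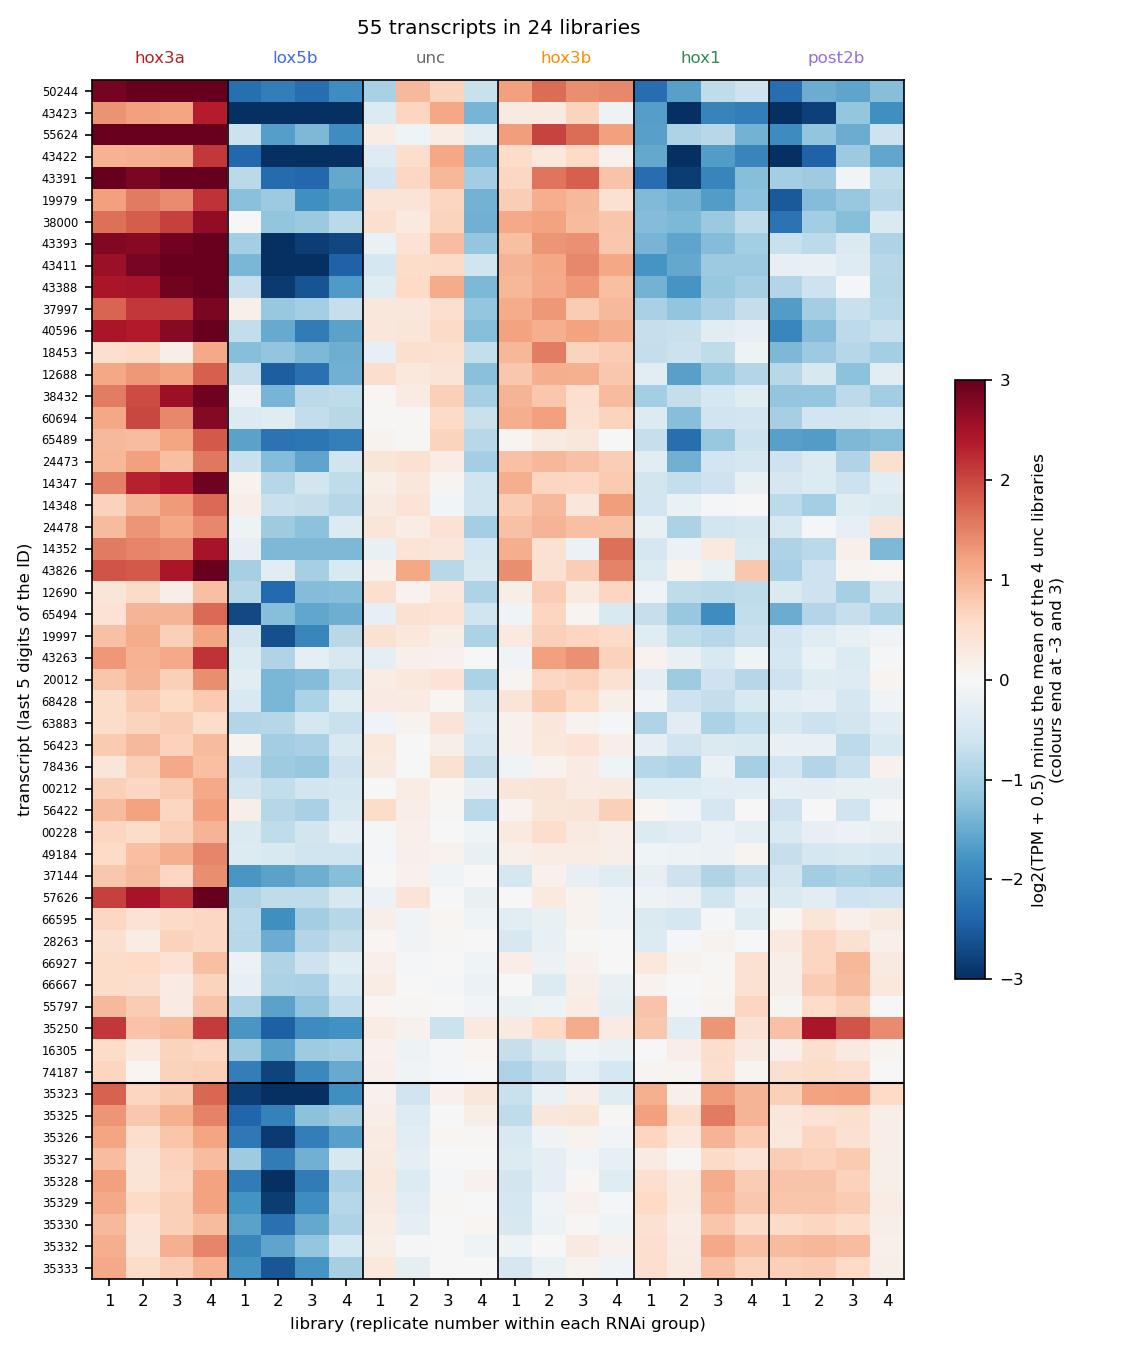
Log2(TPM + 0.5) of the 55 transcripts in each of the 24 libraries, relative to the mean of the 4 unc libraries. Rows above the black line are ordered by the difference of hox3b from hox1 and post2b, and the 9 rows below it are the largest run of ID numbers. The hox3a columns are red and the lox5b columns blue in nearly every row. In hox3b, hox1 and post2b most upper rows differ from the last 9. Some upper rows, such as SMESG000074187.1 and SMESG000016305.1, have the same signs as the last 9 in these groups.

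Gene IDs of this annotation are numbered, and members were often close in number. With closeness set at 10 numbers or fewer, 27 of the 55 members (49.1%) had another member close by, against 192 of the 14251 other genes of the same minimum level (1.35%). By the same measure 96.5% of the 14306 genes had some gene of that level close by, so the ID numbers are dense and the figure of 49.1% concerns members only. The 27 members formed 9 runs, 6 of them pairs, and the remaining 28 members stood alone. The count was also 27 when closeness was set at 5, and 33 at 20. The files give no coordinates, so whether close numbers mean neighbouring genes was not analysed here.

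The longest run held 9 members, from SMESG000035323.1 to SMESG000035333.1, and every gene of the table within this range of numbers was a member. These transcripts differed widely in level: SMESG000035330.1, SMESG000035327.1 and SMESG000035333.1 averaged 1902, 1844 and 1063 TPM over the 24 libraries, SMESG000035328.1, SMESG000035323.1, SMESG000035326.1 and SMESG000035329.1 averaged 677, 622, 615 and 194 TPM, and SMESG000035325.1 and SMESG000035332.1 averaged 27.9 and 15.9 TPM. Despite this range of level, their difference from unc was 0.74 to 1.23 in hox3a and -3.05 to -1.28 in lox5b.

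SMESG000035333.1 shows the run's pattern. It was at 1113, 736, 903 and 890 TPM in unc, 1992, 1313, 1514 and 1864 TPM in hox3a, and 260, 152, 266 and 452 TPM in lox5b. Every hox3a library was above, and every lox5b library below, all of unc. SMESG000035323.1 had the widest separation of hox3a from lox5b in the run, 4.28, with 485, 293, 486 and 563 TPM in unc, 1526, 693, 761 and 1463 TPM in hox3a, and 61.8, 22.1, 47.3 and 123 TPM in lox5b. These 3 groups also did not overlap.

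Several groups had the same highest or lowest library throughout the run. In all 9 the highest hox1 library was replicate 3 (14.5% of the 14306 genes) and the lowest replicate 2 (24.2%). In all 9 the highest hox3b library was replicate 3 (20.8%) and the lowest replicate 1 (14.5%). Likewise the highest lox5b library was replicate 4 (31.9%), the lowest hox3a library replicate 2 (12.8%) and the lowest post2b library replicate 4 (21.4%). The summed TPM of the 9 was 7054, 4743, 5983 and 6173 in unc, 12810, 8182, 9809 and 12612 in hox3a, and 1949, 1069, 1799 and 3175 in lox5b. Ratios between neighbours varied less in some pairs than in others. SMESG000035328.1 and SMESG000035329.1, adjacent in number, are listed here by the ratio of the later to the earlier ID, which stayed between 0.255 and 0.345 in all 24 libraries. That of SMESG000035325.1 to SMESG000035323.1 ran from 0.0268 to 0.21.

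Just past the run, SMESG000035335.1 was more abundant than any member, at a mean of 6386 TPM, and missed the rule by a difference of 0.42 in hox3a, with -1.46 in lox5b. On the other side, SMESG000035316.1 and SMESG000035313.1 had differences of 0.33 and 0.06 in hox3a and of -0.02 and -0.35 in lox5b. They stood apart from the run in hox1 too, at -1.12 and -1.11, where the run was at 0.32 to 1.09.

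The next runs each held 3 members. SMESG000043388.1, SMESG000043391.1 and SMESG000043393.1 were the only genes of the table in their range of numbers. Their summed TPM was 107, 191, 269 and 55 in unc, 845, 824, 1008 and 1842 in hox3a, and 73, 14, 20 and 31 in lox5b. Every hox3a sum was above the highest unc sum, while lox5b replicate 1 lay above unc replicate 4. SMESG000043393.1 alone was at 50.8, 78.8, 112 and 25.9 TPM in unc, 403, 392, 439 and 806 TPM in hox3a, and 28.8, 4.15, 7.81 and 8.42 TPM in lox5b. SMESG000043388.1 ran at 24.7 to 137 TPM in unc, 348 to 813 TPM in hox3a and 8.29 to 39.2 TPM in lox5b. SMESG000043391.1 was lower throughout, at 4.67 to 20.6 TPM in unc, 74.7 to 223 TPM in hox3a and 1.59 to 5.57 TPM in lox5b. The pattern was therefore the same at high and low level, with overlap between unc and lox5b in each of the 3.

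The remaining run of 3 was near the floor. SMESG000014347.1 was at 5.89, 6.70, 5.53 and 3.24 TPM in unc, 15.7 to 42.5 TPM in hox3a, and 5.63, 2.65, 3.38 and 2.87 TPM in lox5b. Its lox5b and unc libraries overlapped, and its difference of -0.51 made it, with SMESG000014348.1 at -0.51, one of the members nearest to the lox5b threshold. SMESG000014348.1 was at 0.782 to 2.10 TPM in unc, 2.67 to 5.80 TPM in hox3a and 0.588 to 1.73 TPM in lox5b. SMESG000014352.1 was at 0.384 to 1.19 TPM in unc and 2.90 to 6.55 TPM in hox3a, and was listed at 0 in 3 lox5b libraries and at 0.567 TPM in replicate 1. SMESG000014351.1, which lies inside this range of numbers and averaged 2.10 TPM, had a difference of 2.44 in hox3a and of -0.44 in lox5b, and so was no member.

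At the thresholds, the members with the smallest difference in hox3a were SMESG000066667.1 and SMESG000028263.1, each at 0.50, and the nearest transcripts outside were SMESG000028260.1 at 0.49 and SMESG000041448.1 at 0.46. Outside the lox5b threshold, SMESG000029404.1 was at -0.49 and SMESG000010552.1 at -0.46. The edges of the set are thus not breaks in the data.

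The names paired with IDs in the study covered 676 of the genes tested, and only 2 of these were members. SMESG000049184.1 has a tetraspanin as its closest match in the fly, Tetraspanin 66E, and CD63 in human. Tetraspanins are proteins that cross the membrane 4 times, and CD63 sits in late endosomes and lysosomes of human cells. SMESG000049184.1 was at 161, 184, 178 and 143 TPM in unc, 253, 312, 351 and 458 TPM in hox3a, and 124, 121, 110 and 110 TPM in lox5b. No library overlapped between these groups. SMESG000057626.1 is listed as an unknown protein with no match, and SMESG000049184.1, too, has no product name apart from its matches. The other 53 members are given by ID only. Product names with words for transposable elements, proteases, the TRAF family (adaptors of tumour necrosis factor receptors), cilia, ribosomes and neurons were held by 5, 6, 17, 12, 9 and 11 tested genes, and no member could be among them, since none of the 504 tested genes with a product name is a member.

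Marker lists of anchor cells, which lie in the epidermis, and of viscid glands, which release adhesive secretions, held 7 and 3 genes. All of these genes are named by the study as downstream effectors of post2b. None of them was a member, and none was at 0. Summed over the anchor cell genes, TPM was 575 to 729 in unc, 531 to 817 in hox3a and 433 to 549 in lox5b. Over the viscid gland genes it was 1071 to 1246, 889 to 1118 and 893 to 1116. The study also found rcn-1, among the viscid gland genes, in parapharyngeal cells, so this sum does not follow viscid glands alone. In lox5b the anchor cell sum lay below all of unc, and its part in the members' values was not tested.

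The other 3 Hox groups entered the rule only through the minimum mean TPM over the 24 libraries, but their differences from unc rest on the same 4 control libraries, so they are given side by side and not tested against unc here. The median difference over the 55 members was -0.48 in hox1, 0.39 in hox3b and -0.42 in post2b. In 36 members hox3b was above unc with hox1 and post2b below it. In 12 members the reverse held, with hox3b below unc and hox1 and post2b above it, and 7 members had another combination. The 12 included the whole 9-transcript run except SMESG000035332.1, where hox3b was at 0.06, so they are not separate cases. These counts go by sign alone, however small the difference. Their share over all genes was not computed, so nothing is read from them. In the 9-transcript run the differences were 0.32 to 1.09 in hox1, -0.29 to 0.06 in hox3b and 0.35 to 0.94 in post2b.

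Comparisons among hox1, hox3b and post2b used no library from the differences that chose the members, though these libraries counted towards the minimum mean TPM. They were tested with limma on log2(TPM + 0.5), with the adjusted p taken over all 15829 genes and a cutoff of 1.5-fold and 0.05. The spread was estimated over all 6 groups, and fits on only the 2 groups compared gave 30 members higher and 9 lower in hox3b than in hox1, and 35 and 11 than in post2b. In all, 30 of the 55 members (54.5%), were higher in hox3b than in hox1, against 1.24% of all genes, and 5 were lower, against 0.354%. Here and in the comparisons below, the members were picked for wide differences in other groups. All genes are therefore not a matched background for these shares. The median member was higher in hox3b by 0.95 on the log2 scale, where the median of all genes was -0.00. All 4 hox3b libraries lay above all 4 hox1 libraries in 34 members (5.34% of all genes), and below them in 9 (5.46% of all genes).

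SMESG000043391.1 had the largest increase in hox3b over hox1. It was at 15.8, 31.8, 36.4 and 18.8 TPM in hox3b and at 1.67, 0.985, 2.19 and 3.89 TPM in hox1, a log2 difference of 3.32 ± 0.43 (SE, limma adjusted p = 1.75e-05). The groups were far apart. In the same run, SMESG000043393.1 was at 103 to 151 TPM in hox3b and 19.1 to 28.7 TPM in hox1, a difference of 2.42 ± 0.40 (limma adjusted p = 0.000441). SMESG000043388.1 was at 119 to 157 TPM in hox3b and 18.4 to 31.8 TPM in hox1, a difference of 2.41 ± 0.42 (limma adjusted p = 0.000847). All 3 were therefore separated between hox3b and hox1 without overlap.

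Outside that run, SMESG000043411.1 was at 289, 322, 388 and 321 TPM in hox3b and 41.6, 48.9, 66.9 and 66.4 TPM in hox1, a difference of 2.57 ± 0.32 (limma adjusted p = 1e-05). SMESG000055624.1 was at 13.1, 22.8, 17.7 and 12.9 TPM in hox3b and 1.33, 2.51, 2.69 and 1.63 TPM in hox1, a difference of 2.75 ± 0.33 (limma adjusted p = 4.48e-06). Neither overlapped between the groups.

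The members lower in hox3b than in hox1 were SMESG000035325.1, SMESG000035326.1 and SMESG000035330.1 of the 9-transcript run, with SMESG000016305.1 and SMESG000074187.1. SMESG000035325.1 was at 11.8, 26.1, 26.2 and 20.8 TPM in hox3b and 48.8, 29.4, 61.4 and 42.1 TPM in hox1, a difference of -1.10 ± 0.26 (limma adjusted p = 0.0172). The libraries did not overlap, though hox1 replicate 2 was close to the upper hox3b values. The most abundant member, SMESG000074187.1, was at 1796, 2117, 2788 and 2343 TPM in hox3b and 3580, 3596, 4853 and 3602 TPM in hox1, a difference of -0.79 ± 0.19 (limma adjusted p = 0.0202). The other 6 of the run had differences of the same sign, -1.14 to -0.58, with limma adjusted p from 0.0533 to 0.185. The count of 5 rested on few libraries: it was 0 without hox1 replicate 3 and 0 without hox3b replicate 1, 2 without hox3b replicate 2 and 3 without hox1 replicate 1.

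**Figure D3:**
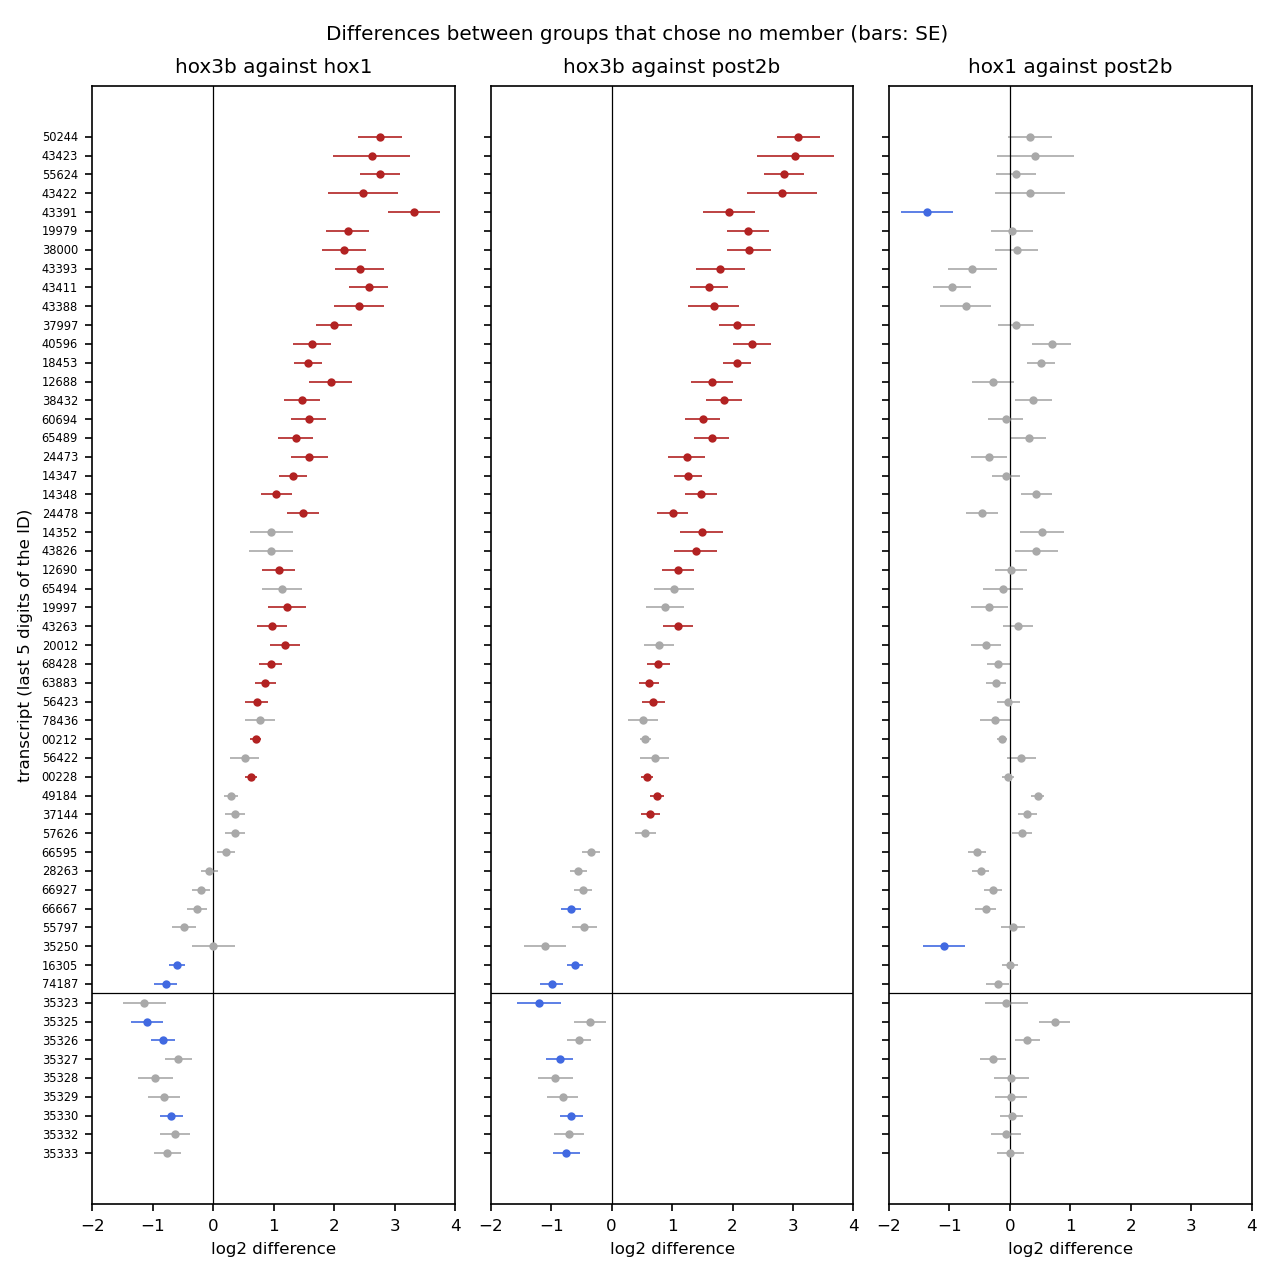
Log2 difference with its SE (bars) for each of the 55 transcripts in hox3b against hox1, hox3b against post2b and hox1 against post2b, with red for members called higher, blue for lower and grey for the rest. Most of the upper rows are red in both comparisons of hox3b (30 and 31 members), the 9-transcript run below the line lies left of 0 there, and in hox1 against post2b 2 members are coloured.

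hox3b was compared with post2b by the same fit, which shares the 4 hox3b libraries with the comparison above. Here 31 of the 55 members (56.4%) were higher in hox3b, against 1.91% of all genes, and 7 were lower, against 0.335%. The median member was higher by 0.79, where the median of all genes was 0.08. All hox3b libraries were above all post2b libraries in 35 members (12.4% of all genes), and below them in 11 (1.96% of all genes). Beside this stands a lower sum of the anchor cell genes in post2b, 38.0 to 168 TPM against 573 to 633 TPM in hox3b, and of the viscid gland genes, 563 to 639 against 925 to 1076 TPM. The study picked these effectors of post2b from genes that changed in these same libraries. Their change in post2b thus follows from that choice and is no separate evidence on the cell types. None of these genes is a member, and their part in the difference was not tested.

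SMESG000050244.1 had the largest increase in hox3b over post2b, from 3.57, 6.60, 6.10 and 7.64 TPM in post2b to 45.9, 62.2, 51.3 and 53.6 TPM in hox3b, a difference of 3.09 ± 0.36 (limma adjusted p = 2.52e-06). SMESG000043423.1 was at 6.59, 38.6, 121 and 75.6 TPM in post2b and 331, 328, 431 and 245 TPM in hox3b, a difference of 3.04 ± 0.64 (limma adjusted p = 0.00456). Its neighbour SMESG000043422.1 differed by 2.82 ± 0.58 (limma adjusted p = 0.00327). Post2b replicate 1 was far below the other 3 in both, and the groups did not overlap.

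SMESG000040596.1 was at 476, 440, 481 and 441 TPM in hox3b and 52.8, 84.5, 120 and 130 TPM in post2b, a difference of 2.32 ± 0.32 (limma adjusted p = 4.14e-05). The tetraspanin-like SMESG000049184.1 differed less but with little spread: 185, 193, 195 and 186 TPM in hox3b and 102, 114, 121 and 114 TPM in post2b, a difference of 0.75 ± 0.11 (limma adjusted p = 0.00014). Of the low run, SMESG000014347.1 was at 8.30 to 11.5 TPM in hox3b and 3.16 to 4.03 TPM in post2b, a difference of 1.26 ± 0.23 (limma adjusted p = 0.00157). In these 3 the libraries of the groups did not overlap.

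The members lower in hox3b than in post2b were SMESG000035323.1, SMESG000035327.1, SMESG000035330.1 and SMESG000035333.1 of the 9-transcript run, with SMESG000016305.1, SMESG000066667.1 and SMESG000074187.1. SMESG000035333.1 was at 639, 787, 963 and 822 TPM in hox3b and 1476, 1534, 1368 and 1024 TPM in post2b, a difference of -0.75 ± 0.22 (limma adjusted p = 0.0357). SMESG000035323.1 was at 281, 384, 510 and 343 TPM in hox3b and 734, 1032, 1037 and 675 TPM in post2b, a difference of -1.2 ± 0.36 (limma adjusted p = 0.0409). SMESG000074187.1 was at 3431 to 4990 TPM in post2b, all above the 1796 to 2788 TPM of hox3b, a difference of -0.99 ± 0.19 (limma adjusted p = 0.0022). The libraries of hox3b and post2b were separate in each of the 3. The count of 7 was 1 without post2b replicate 2, 2 without hox3b replicate 1, 2 without hox3b replicate 2, 3 without post2b replicate 3 and 11 without post2b replicate 4.

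**Figure D4:**
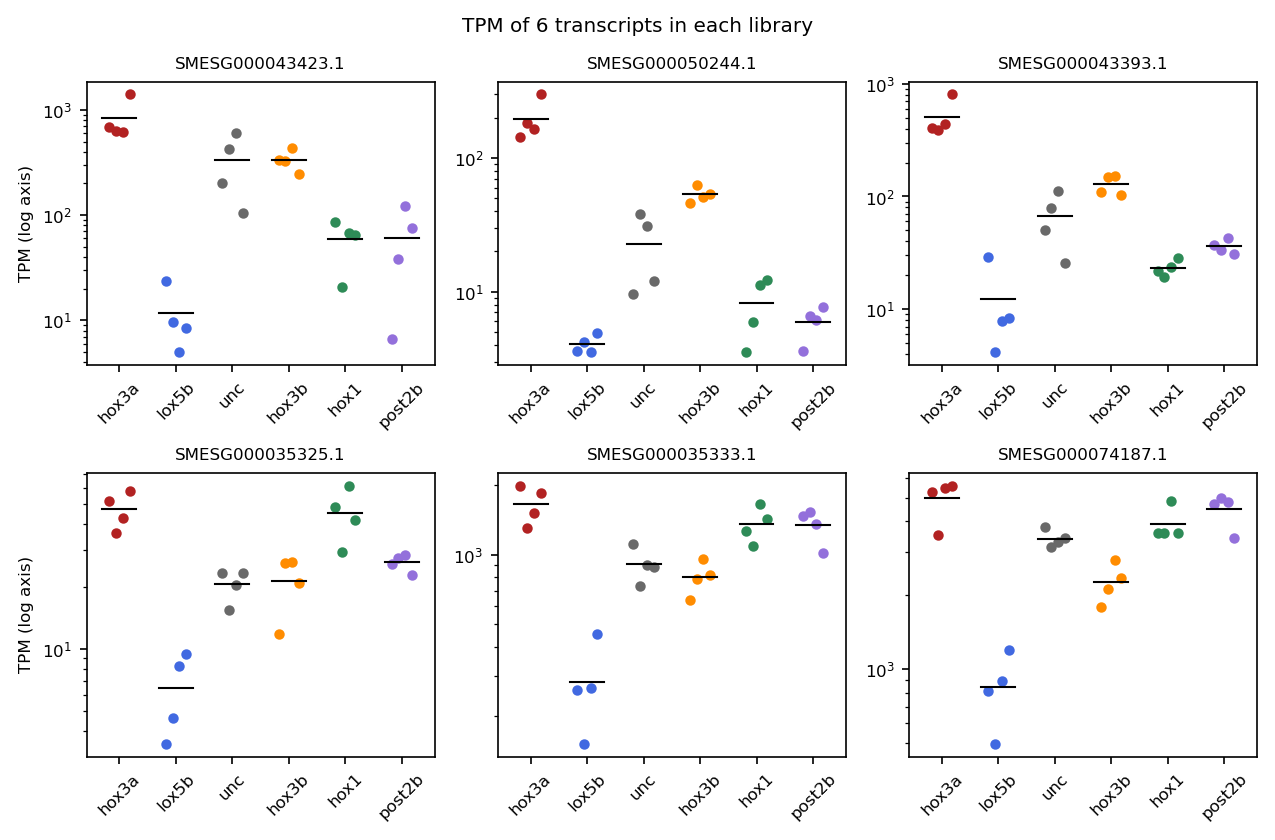
TPM (log axis) of 6 transcripts in each library of the 6 groups, with the mean of each group as a black line. In SMESG000043423.1, SMESG000050244.1 and SMESG000043393.1 all hox3b libraries lie above all hox1 and post2b libraries, while in SMESG000035333.1 and SMESG000074187.1 all hox3b libraries lie below them and in SMESG000035325.1 they lie below all hox1 libraries.

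Few members differed between hox1 and post2b at the cutoff, and the counts at the cutoff alone are too small to set the members apart from all genes. None was higher in hox1 at the cutoff in limma, against 1.2% of all genes, and 2 (3.64%) were lower, against 1.11%. At an unadjusted p under 0.05, 4 members were higher and 6 lower, against 22.2% and 5.21% of all genes. SMESG000043391.1 was at 4.73, 4.62, 9.57 and 5.79 TPM in post2b, above the hox1 values, a difference of -1.37 ± 0.43 (limma adjusted p = 0.042). SMESG000035250.1 was at 4.31, 1.68, 6.33 and 3.26 TPM in hox1 and 4.59, 14.4, 9.61 and 6.83 TPM in post2b, a difference of -1.09 ± 0.35 (limma adjusted p = 0.0461), and its groups overlapped. All hox1 libraries were above all post2b libraries in 3 members (5.45%, against 13.8% of all genes) and below them in 7 (12.7%, against 3.43%). These shares differed from those of all genes, and the reason was not tested. The median member differed by -0.00, where all genes had a median of 0.10. The count of 2 fell to 0 without any 1 of hox1 replicates 1 and 2 or post2b replicates 2, 3 and 4, and to 1 without hox1 replicate 4.

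**Figure D5:**
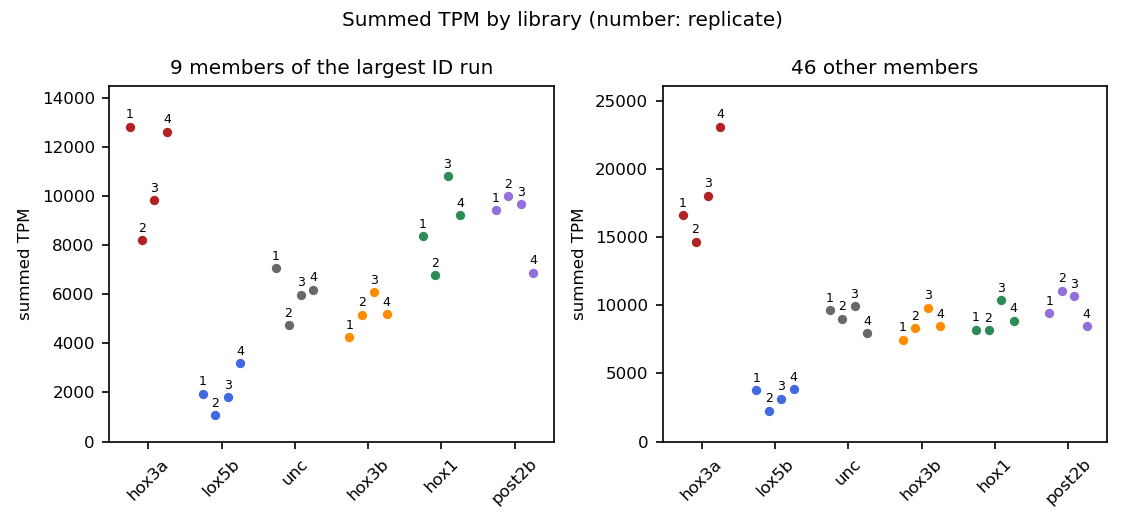
Summed TPM of the 9 members of the largest ID run (left) and of the other 46 members (right) in each library, with the replicate number beside each point. The hox3a sums lie above and the lox5b sums below all of unc in both panels, while the sums of the run in hox1 and post2b all lie above those in hox3b.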

How the data were processed

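Polyadenylated RNA of 24 libraries was sequenced by the authors from stranded TruSeq libraries, with reads aligned by STAR to the S. mediterranea genome. bcl2fastq 2.20 is named in the submitters' processing notes. The deposited values are TPM per gene model, and the tool that computed them is not given in the sources used here. TPM keeps no read depth, so depth is unknown and no counting interval is given. Libraries had 16685 to 17843 genes above 0. The range was 17512 to 17843 in unc, 17322 to 17505 in hox3a and 16685 to 17109 in lox5b. It was 17087 to 17314 in hox1, 17225 to 17683 in hox3b and 17189 to 17713 in post2b. All of lox5b thus lay below all of unc and hox3a, and what this means for members near the floor was not tested.

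The members and lists were chosen with earlier results of these data known. Values were log2(TPM + 0.5). limma 3.58.1 in R 4.3.3 (lmFit, eBayes with trend) was fitted over 15829 genes with at least 0.5 TPM in at least 4 libraries, 1 model holding the 6 groups, and p-values were adjusted by Benjamini-Hochberg. The study's edgeR test needs counts and was not run. The script was tested on simulated data. Transcripts named are members of ID runs of at least 3 and other genes inside them, those with a product name or a named match in another species, the 10 with the widest separation of hox3a from lox5b, up to 5 in each direction with the largest called change, and the 2 nearest each threshold. Genes beside the runs and SMESG000016305.1 were added after their values were seen. Alternatives were other pseudocounts, filters, scalings and fits, a replicate block and leaving out each library.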

Additional observations from a re-analysis of the deposited data

Results flagged for a closer look

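Among 156 groups of 4 values, from 26 named transcripts in 6 RNAi groups, 13 had 1 library far from the other 3 (Dixon's test at 95%). Chance flags about 1 in 20 groups, and transcripts of 1 run share their libraries. Of the 13, 6 were in hox3a replicate 4, where SMESG000043423.1 was at 1405 TPM (others 623 to 693), SMESG000043422.1 at 1219 (574 to 604), SMESG000043393.1 at 806 (392 to 439), SMESG000043391.1 at 223 (74.7 to 95.7), SMESG000055624.1 at 188 (50.8 to 73.5) and SMESG000014352.1 at 6.55 (2.90 to 3.28). Each of these high values was in the group and direction that the rule selects.

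In post2b replicate 4, SMESG000035329.1 was at 185 TPM (others 267 to 283) and SMESG000035332.1 at 13.3 (23 to 24.3). In lox5b replicate 1, SMESG000014348.1 was at 1.73 TPM (0.588 to 0.724) and SMESG000014352.1 at 0.567, with the others listed at 0. SMESG000074187.1 was at 3531 TPM in hox3a replicate 2 (5293 to 5590) and at 4853 in hox1 replicate 3 (3580 to 3602). SMESG000049184.1 was at 175 TPM in hox1 replicate 4 (147 to 151).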

How the results depend on the processing

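The number of members was 45 to 62 under every alternative tried, and 45 of the 55 were kept after rescaling the libraries by the median of ratios. The counts of members higher in hox3b were stable: against hox1 23 to 31 over all alternatives, against post2b 25 to 35. The counts of members lower in hox3b were not. Against hox1, 5 became 9 with only the 2 groups compared, and 0 to 5 on leaving out a library. Against post2b, 7 became 4 with no filter on low values, 11 with only the 2 groups, and 1 to 11 on leaving out a library. In hox1 against post2b, 2 lower became 1 with a pseudocount of 0.1 or 1, 0 with no filter or without the trend, and 4 with only the 2 groups (where 1 was higher), and leaving out a library gave 0 to 3 lower and 0 to 1 higher. With the replicate number as a block, 31 members were higher and 6 lower in hox3b than in hox1, 32 and 9 than in post2b, and 0 lower in hox1 than in post2b. No source used here pairs the libraries by number. Same-numbered libraries correlated at -0.28 to 0.30 over 60 pairs, with 9 over 0.1. For replicate 1, every pair among unc, hox3a, hox1 and post2b was positive, at 0.18 to 0.30. Those of lox5b with these groups were negative, at -0.25 to -0.13, and what replicate 1 libraries share was not tested. Leaving out unc replicate 4 or hox3a replicate 4, chosen after seeing the data, gave 31 and 31 higher in hox3b than in hox1, 34 and 32 than in post2b, and 1 and 3 lower in hox1 than in post2b. Of 22 named members called in a comparison, 13 kept the call under every alternative that tested them (SMESG000014348.1 was not tested with a mean TPM of at least 2) and 9 lost it under at least 1. SMESG000028263.1, at -0.07 in hox3b against hox1 and not called, was at -0.17 to 0.03 on leaving out a library, the only value above 0 being without hox3b replicate 1. The causes were not tested. TPM keeps no depth, so how far counting error limits members near 1 TPM is unknown.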
